A study of Danio rerio with 3 samples.

Results

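The cells described here are cells of the adult zebrafish telencephalon, proposed as postmitotic neuroblasts of the pallium. They lacked detected RNA of chosen glial and division genes and carried RNA of the transcription factors *neurod4*, *nhlh2*, *scrt1b*, *olig4*, *uncx4.1* and *emx3*. A cell was a member when it held unique molecular identifiers (UMIs, 1 per captured RNA molecule) of at least 2 of those 6 genes and 0 UMIs of *slc1a2b* and *cx43* (radial glia) and of *rrm2*, *pclaf*, *ube2c* and *cdk1* (cell division). The rule kept 707 of the 19102 cells that had at least 200 genes and at most 10% of UMIs from mitochondrial genes. The members made up 3.57%, 3.82% and 3.77% of cells in replicates 1, 2 and 3 (3.72% ± 0.135, SD, n = 3), with exact (Clopper-Pearson) 95% intervals that overlapped. These intervals cover counting error only.

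In the teleost pallium, radial glia act as neural stem cells: they divide or pass through intermediate progenitors, and their daughters switch on proneural basic helix-loop-helix factors, leave the cell cycle and differentiate next to the ventricle. Notch signaling holds the glia in quiescence, while Delta ligands on differentiating neighbours activate it. *neurod4* and *nhlh2* encode basic helix-loop-helix factors of this neuronal commitment step, *olig4* a further factor of that class, *scrt1b* a Scratch family zinc finger repressor, *uncx4.1* a homeobox factor, and *emx3* a homeobox factor of the zebrafish pallium.

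The series holds 3 replicates of single-cell RNA-seq from the telencephalon of Tg(sox2:gfp) fish, labelled 12 weeks old, all exposed to the γ-secretase inhibitor LY411575 (LY), which blocks Notch receptor cleavage. The sources disagree on the length of the LY exposure: the deposited description gives 48 hours and the study's methods give a shorter one. Each replicate pooled several fish sorted on 1 day, with GFP-positive cells enriched, GFP-negative cells kept and the tissue cut to favour the pallium, so the share of members depends on the dissection and the sort as well as on the tissue. The replicates are sorting days of pooled fish. The reported tests below start from the spread, over those 3 days, of differences taken within a day. They share information on that spread across genes, so a p-value or SE can be smaller than a gene's own 3 values would give. The transgene drives GFP from *sox2* regulatory sequence, and the members rarely held a *gfp* UMI (0.715% ± 0.687, SD, n = 3, of members thinned to 1000 UMIs, against 2.25% ± 0.829 of all other cells). The study pooled GFP-positive and GFP-negative cells in equal amounts, so these low shares cannot tell which cells carried GFP. Vehicle-treated cells were not analysed here, so nothing below compares LY with its absence.

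The 3 libraries held 15050320, 13048298 and 12104324 UMIs in 8143, 6205 and 5349 barcodes, and 176 barcode sequences occurred in more than 1 library, 10 of them carried by a member. Members held 586268, 576951 and 476827 UMIs in all, with a median of 2005 UMIs and 993 genes per cell against 1596 and 793 in all other cells. Replicate 2 stood apart by blood RNA: the summed level of the vascular and blood list was 22.2, 972 and 147 CPM (the UMIs of a gene or list scaled to a group total of 1000000) in the members of replicates 1, 2 and 3 and 301, 11330.3 and 2356 in all other cells, and its part in the results was not tested. Of the members, 28 (3.96%) had a high simulated-doublet score against 5.30% of all other cells.

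Among the 6 genes of the rule, which are described without a test, *emx3* was the most widely detected, with UMIs in 86.1%, 92.2% and 87.2% of members in replicates 1, 2 and 3. *neurod4* followed with 68.3%, 65.4% and 72.3%. *nhlh2* varied most between replicates, at 44.8%, 54.1% and 29.7%, lowest in replicate 3. The other rule genes, *uncx4.1* (33.1%, 39.8% and 39.0%), *scrt1b* (23.5%, 32.5% and 32.3%) and *olig4* (12.8%, 18.2% and 20.5%), were found in fewer members. As levels, *emx3* stood at 1023, 1163 and 1086 CPM in members and 111, 147 and 199.95 in all other cells, and *neurod4* at 737, 785 and 854 and 45.1, 72.4 and 96.8. Few members held all markers: 349 held exactly 2 of the 6 genes, 199 held 3, 101 held 4, 46 held 5 and 12 held all 6. The commonest exact pair was *neurod4* with *emx3*, in 148 of the 349 members with exactly 2 genes (42.4%). Outside the rule, *tbr1b*, a T-box factor gene of excitatory pallial neurons, had UMIs in 63.0%, 75.8% and 63.1% of members, *bhlhe22* in 40.6%, 55.4% and 42.6% and *neurod2* in 27.4%, 31.2% and 21.0%, without thinning.

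**Figure D1:**
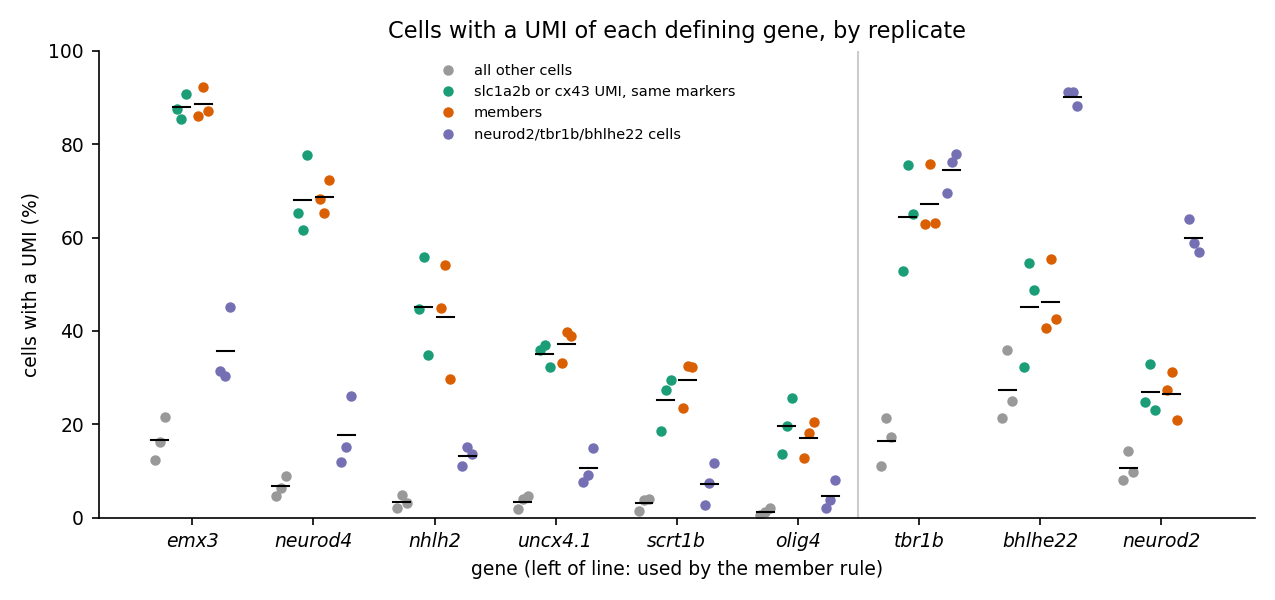
The vertical axis gives the percentage of cells with at least 1 UMI, unthinned, and each point is 1 replicate (n = 3), with a black bar at the mean. Members are shown beside all other cells, cells with the same markers that also held *slc1a2b* or *cx43* UMIs, and cells with UMIs of at least 2 of *neurod2*, *tbr1b* and *bhlhe22*. The member rule used the 6 genes left of the line, so their separation from all other cells is by construction.

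Cells just outside the rule differed from those just inside in some genes more than in others. The 1057 cells with exactly 1 of the 6 genes and none of the 6 excluded genes had a median of 1585 UMIs. Their *elavl3* and *eomesa* UMIs were in 78.2% and 33.3%, unthinned. The 349 members with exactly 2 genes had a median of 1944 UMIs, with 96.6% and 75.4%. Other genes were closer, with *bhlhe22* UMIs in 41.6% and 48.1% and *fabp7a* UMIs in 50.1% and 56.4%. The part of depth in these shares was not tested. Of the 1770 cells with at least 2 of the 6 genes, 39.9% were members (52.1%, 37.3% and 31.9% by replicate), 45.3% held a *slc1a2b* or *cx43* UMI and 34.3% held a UMI of 1 of the 4 division genes. The cells barred by a division gene were deeper than the members (607 cells, median 4443 UMIs). The part of depth in the barring was not tested beyond thinning to 1000 UMIs before the rule, which left out shallower cells. Members made up 3.88% of the cells kept, a smaller set than that behind the 3.72% above. Among cells of at least 1000 UMIs, members numbered 657 at full depth and 564 after thinning. Cells with at least 2 of the 6 genes, a *slc1a2b* or *cx43* UMI and no division gene UMI numbered 449 and 114.

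The label of postmitotic pallial neuroblasts was set beside genes that the rule did not use. These genes were chosen with earlier results of these data known, so they are no independent check. *elavl3*, an RNA-binding protein gene of committed neurons, had a UMI in 94.9% ± 1.82 of members (SD, n = 3) after thinning every cell to 1000 UMIs, against 47.2% ± 1.87 of all other cells and 21.4% ± 10.5 of cells with microglial genes, which should lack it and stand here as 1 estimate of free RNA (median 1712 UMIs, 124 cells kept; 657 members kept, 50 left out). Cells with oligodendrocyte genes, which should lack it as well, had an *elavl3* UMI in 50.2% ± 2.13 after the same thinning and were set aside as an estimate after this value was seen. Without thinning the shares of members and of microglial gene cells were 98.1% ± 1.02 and 26.8% ± 4.21. The pallial genes *eomesa* and *tbr1b* had UMIs in 66.9% ± 2.76 and 46.7% ± 4.41 of members, against 4.44% ± 5.09 and 3.20% ± 0.226 of microglial gene cells. The GABA neuron genes *gad2* and *dlx5a* had UMIs in 6.46% ± 3.45 and 5.06% ± 2.54 of members, near the 4.87% ± 1.87 and 6.41% ± 3.36 of microglial gene cells. The whole subpallial and GABA list of 18 genes was not near in each replicate. It summed to 614, 469.7 and 599.8 CPM in members and 283, 235 and 610 CPM in microglial gene cells of replicates 1, 2 and 3. For division, *mki67* and *top2a* were seen in 0.685% ± 0.872 and 0.152% ± 0.264 of members, while the replication genes *pcna* (6.83% ± 2.43) and *mcm2* (3.97% ± 1.45) were seen in more. By these genes the members were neuronal and pallial. The rule itself drew on neuronal commitment genes and the pallial gene *emx3*, so these traits are in part set by it. Division RNA was low but not absent, and its low level is likewise in part set by the 4 excluded division genes. The G1/S list summed to 565, 685 and 940 CPM in members, 1182, 1810 and 1895 in all other cells and 209, 598 and 361 in microglial gene cells. For the G2/M list the sums were 696, 823 and 910, 897, 1513 and 2005, and 639, 1043 and 610 in the same order.

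UMIs were next summed over the members of each replicate and over all other cells of the same replicate, and every gene was tested with edgeR's quasi-likelihood test with the replicate as a block. Levels below are CPM of these sums, always in the order replicate 1, 2 and 3, and differences are log2 fold changes ± SE, members minus the other cells. Each SE is the size of the fold change over the square root of the test's F statistic. At an adjusted p under 0.05, 32.3% of the 14170 genes tested were called, 13.4% higher and 18.9% lower in the members, and the median difference of all genes tested was −0.14. The 3 member values lay above all 3 values of the other cells for 13.1% of genes tested and below them for 28.6%. Without replicate 2 the number of calls was 2904 in place of 4581. The cells were chosen by RNA content, so genes that go along with the 12 rule genes were bound to differ, and the calls describe the chosen cells. A gene may also be lower because fewer cells of a group carry it, which sums over cells cannot tell from less RNA per cell.

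Of the 18 gene lists, the proneural and neurogenic genes had the largest share of tested genes higher in members: of 27 genes, 25 were tested, 22 were higher, 1 was lower and the median difference was 1.83. *neurog1*, a proneural factor that starts neuronal commitment, stood at 198, 182 and 216 CPM in members and 19.0, 29.6 and 40.0 in all other cells, a difference of 2.90 ± 0.15 (edgeR adjusted p = 2.1e-81). *insm1a*, a zinc finger gene of progenitors that leave the ventricular zone, stood at 230.3, 299.9 and 241 against 26.3, 48.5 and 49.7 (2.77 ± 0.14). In both genes every member value was above every value of the other cells.

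*sox12* encodes a SoxC family factor. It was not in the rule but was among the markers proposed for these cells with earlier results of these data known. Its rise is therefore no independent check. It stood at 155, 140.4 and 122 in members and 11.1, 19.0 and 19.8 in all other cells, a difference of 3.20 ± 0.17. Its relatives *sox11b* (1.83 ± 0.16), *sox11a* (1.28 ± 0.15) and *sox4a* (1.38 ± 0.17) were also higher, and *sox4a* RNA was widespread, with UMIs in 92.4% ± 1.08 of thinned members and 55.7% ± 6.99 of other cells. *hes6*, known in mouse to counter Hes repressors and favour differentiation, was higher by 1.88 ± 0.14, and the related *her13* by 2.75 ± 0.20. *scrt2*, a relative of the rule gene *scrt1b*, stood at 314, 283 and 331 against 49.5, 57.5 and 67.2 (2.52 ± 0.14). The 1 list gene that was lower was *ascl1a*, the proneural factor of activated stem cells and progenitors, at 196, 249.6 and 373 in members and 418, 556 and 698 in all other cells (−0.95 ± 0.15, edgeR adjusted p = 4.4e-09), with every member value below every value of the other cells.

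Downstream factors of excitatory neurons were raised as well. *eomesa*, whose mouse counterpart Tbr2 marks intermediate progenitors of the cortex, stood at 1174, 1619 and 1376 in members and 199, 409 and 302 in all other cells, a difference of 2.34 ± 0.15. *neurod1* (2.28 ± 0.16), *bhlhe23* (1.86 ± 0.14), *ebf3a* (2.11 ± 0.16) and *ebf2* (3.68 ± 0.33) were higher in all 3 replicates. *ebf2*, which encodes an early B-cell factor family member, gave the largest rise among the genes that the naming rule admits, but it was sparse, with 62 UMIs over all members and a UMI in 2.55% ± 1.01 of thinned members.

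Of the 20 pallial transcription factors, 18 were tested, 8 were higher and 1 was lower, with a median of 0.67. This list shares *eomesa*, *neurod6a* and *neurod6b* with the proneural list, so the counts of both lists are not independent in any comparison. *lhx2b* (223, 291 and 209.7 against 55.8, 84.3 and 72.7, difference 1.87 ± 0.14) and *lhx9* (1.51 ± 0.20), both LIM homeobox genes of the dorsal telencephalon, and *emx2* (0.80 ± 0.16), the relative of the rule gene *emx3*, were among those higher, as was *foxg1a*, a gene of the whole telencephalon (0.83 ± 0.14). *emx1* was sparse, with 7 UMIs over all members, and *foxp2*, with 8 UMIs, was the 1 gene called lower. *tbr1b*, which was not in the member rule, stood at 684, 867 and 638 against 93.4, 208 and 141 (2.46 ± 0.15).

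The subpallial and GABA neuron list ran the other way: 17 of 18 genes were tested, 14 were lower, 0 were higher and the median was −0.99. *gad2* and *gad1b*, which encode the GABA-synthesizing enzymes, differed by −1.09 ± 0.16 and −1.25 ± 0.17, with *gad2* at 128, 81.5 and 105 in members and 392, 134 and 229 in all other cells. The whole list summed to 614, 469.7 and 599.8 CPM in members against 1647, 805 and 1359.5, and was highest in replicate 1 among the other cells. *gsx2*, a homeobox gene of subpallial progenitors, was almost absent, with 5 UMIs over all members. Of the 7 glutamate transmitter genes only 4 were tested, and *slc17a6b*, a vesicular glutamate transporter gene, was the 1 called, at 73.3, 60.7 and 33.6 in members and 24.9, 25.3 and 17.1 in all other cells (1.41 ± 0.21).

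Neuronal genes split by maturity. Of 29 early neuronal genes, 27 were tested, 13 were higher and 0 were lower (median 0.32), led by *elavl3* at 6509, 5928 and 5219.9 against 1224, 1228 and 1231 (2.35 ± 0.18) and *tmsb*, a thymosin beta gene, at 1146, 974 and 1147 against 249, 305 and 407 (1.89 ± 0.15). The microtubule genes *stmn1b* (0.98 ± 0.18) and *tubb5* (0.79 ± 0.17) rose less, and *gap43*, a growth cone gene, missed the threshold (0.27 ± 0.14, edgeR adjusted p = 0.14). Of 24 synaptic and mature neuronal genes, 23 were tested, 21 were lower and 0 were higher (median −0.82). The vesicle genes *snap25a* (247, 295 and 275 in members against 603, 440.3 and 408) and *sv2a* (116, 116 and 81.8 against 398, 179 and 195) were below the other cells in every replicate, and the neuronal sodium pump gene *atp1a3b* differed by −2.15 ± 0.34. The synaptic list summed to 2707, 3049 and 2433 CPM in members against 6767, 4970.1 and 4022.

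Part of the genes for sending the Notch signal were raised in these cells. Of 11 ligand genes and ligand modifiers, 10 were tested, 4 were higher and 1 was lower (median 0.55). *dlb* stood at 198, 232 and 191 in members and 33.6, 44.2 and 53.2 in all other cells (2.37 ± 0.14), *dlc* at 145, 102 and 155 against 40.7, 41.6 and 54.2 (1.66 ± 0.15) and *dll4* at 125, 98.8 and 77.6 against 20.9, 23.7 and 22.0 (2.28 ± 0.18). In these 3 ligand genes no member value overlapped the other cells. *dla*, the Delta gene with the most UMIs in the members, did not differ beyond its error (0.17 ± 0.15, edgeR adjusted p = 0.41), and *dld* was lower (−0.76 ± 0.22).

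The receptors and targets of Notch did not move as 1 block: of 19 genes, 18 were tested, 6 were higher and 6 were lower (median −0.35). *her4.2*, of the Hes5-like her4 family, stood at 408, 586 and 350.2 in members against 141, 285 and 332 in all other cells (0.99 ± 0.14), *her4.4* was higher by 1.09 ± 0.14 and *her8.2* was higher by 2.31 ± 0.20. The her4 genes are near-identical neighbours, so reads may be split between them and each single value is uncertain. *her6* (17.1, 13.9 and 21.0 against 63.9, 71.4 and 76.1, difference −1.94 ± 0.25) and the receptor gene *notch3* (−0.93 ± 0.18) were lower, and *notch1a* was slightly higher (0.52 ± 0.17).

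Division genes were low beyond the 4 that the rule excluded. Of 25 G1/S genes, all tested, 22 were lower and 0 were higher (median −1.33), and of 20 G2/M genes 19 were tested, 17 were lower and 0 were higher (median −3.01). *mki67* had 12 UMIs and *top2a* 5 over all 707 members. *pcna* was still measured, at 54.6, 81.5 and 168 in members against 185, 359.7 and 353 in all other cells, and its member level was highest in replicate 3. These genes go along with the excluded genes in dividing cells, so their low level and the rule cannot be told apart.

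Genes tied to leaving the cell cycle were mixed as a list, with 5 higher and 7 lower of 18 tested among 21 (median 0.02), and apart from *cdk6*, a G1 kinase gene (1.07 ± 0.30), the genes called higher were kinase inhibitors and growth arrest genes. *cdkn1ca*, which encodes a p57-type inhibitor of cyclin-dependent kinases, stood at 220.0, 274 and 279 in members and 33.3, 66.2 and 82.8 in all other cells (2.26 ± 0.14), and *gadd45ga*, a growth arrest gene, at 263, 213 and 224 against 77.7, 73.6 and 91.2 (1.63 ± 0.14). *gadd45gb.1* (1.08 ± 0.14) and *cdkn1bb*, a p27-type inhibitor gene (0.75 ± 0.14), were the others. *ccnd1*, the cyclin D gene of G1 entry, was lower (−0.96 ± 0.15), as was *btg2* (−0.89 ± 0.15), an antiproliferative gene that marks neurogenic divisions in mouse.

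Glial RNA was low. Of 26 radial glia genes, all tested, 25 were lower and 1, *msi1*, was higher (0.47 ± 0.14), with a median of −2.0. Radial glia genes go along with the excluded *slc1a2b* and *cx43*, so their low level and the rule cannot be told apart. *glula*, which encodes glutamine synthetase, stood at 727, 666 and 784 in members and 2805, 3868 and 3347 in all other cells, *fabp7a*, a brain lipid-binding protein gene, at 602, 731 and 864 against 1555, 2372 and 3205, and *id1*, a repressor of proneural factors, at 101, 88.4 and 88.1 against 545, 631 and 809 (−2.71 ± 0.17). The oligodendrocyte list had 14 of 14 tested genes lower and the microglia list 8 of 9, and the summed level in members was 559, 551 and 732 CPM for the first and 27.3, 104 and 275 for the second. In all other cells the sums were 5472, 7042 and 6134 and 315, 802 and 460.1. The vascular and blood list had 3 of 4 tested genes lower and the ependymal list 3 of 3. Immediate early genes, which respond to neuronal activity and to dissociation, were lower in 10 of 16 (median −0.85), for example *fosab* at 785, 893 and 619 against 1548, 1689 and 1191. Of 22 axon guidance and migration genes tested, 3 were higher and 5 lower (median −0.31): *efnb2a*, an ephrin ligand gene, was higher by 1.05 ± 0.14 and *robo2*, a Slit receptor gene, by 0.68 ± 0.15, while *cxcr4b*, a chemokine receptor gene, differed by −2.44 ± 0.38.

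Outside the lists, the largest rises among the genes that the naming rule admits included *ripply1* (49.5, 46.8 and 31.5 against 3.19, 5.61 and 7.26, difference 3.15 ± 0.29), which encodes a repressor known from somite formation, *bcam* (2.81 ± 0.14), a cell adhesion molecule gene, *kidins220a* (2.64 ± 0.18), a scaffold of neurotrophin receptors, *znf296* (2.62 ± 0.19), a zinc finger gene, and *barhl2* (2.56 ± 0.28), a homeobox gene. *zgc:162707*, a gene without a zebrafish name of its own, rose by 2.83 ± 0.14. The 12 largest falls all had 0 UMIs among the members, for which a floor of 3 UMIs over all members (1.83 CPM) gives a lower bound. *cyp39a1*, a cytochrome gene, was at least 20.1-fold lower in members, *nog2*, a BMP antagonist gene, at least 12.0-fold, *slc6a11b*, a GABA transporter gene of glia, at least 9.14-fold and *sulf1*, a heparan sulfatase gene, at least 8.42-fold.

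**Figure D2:**
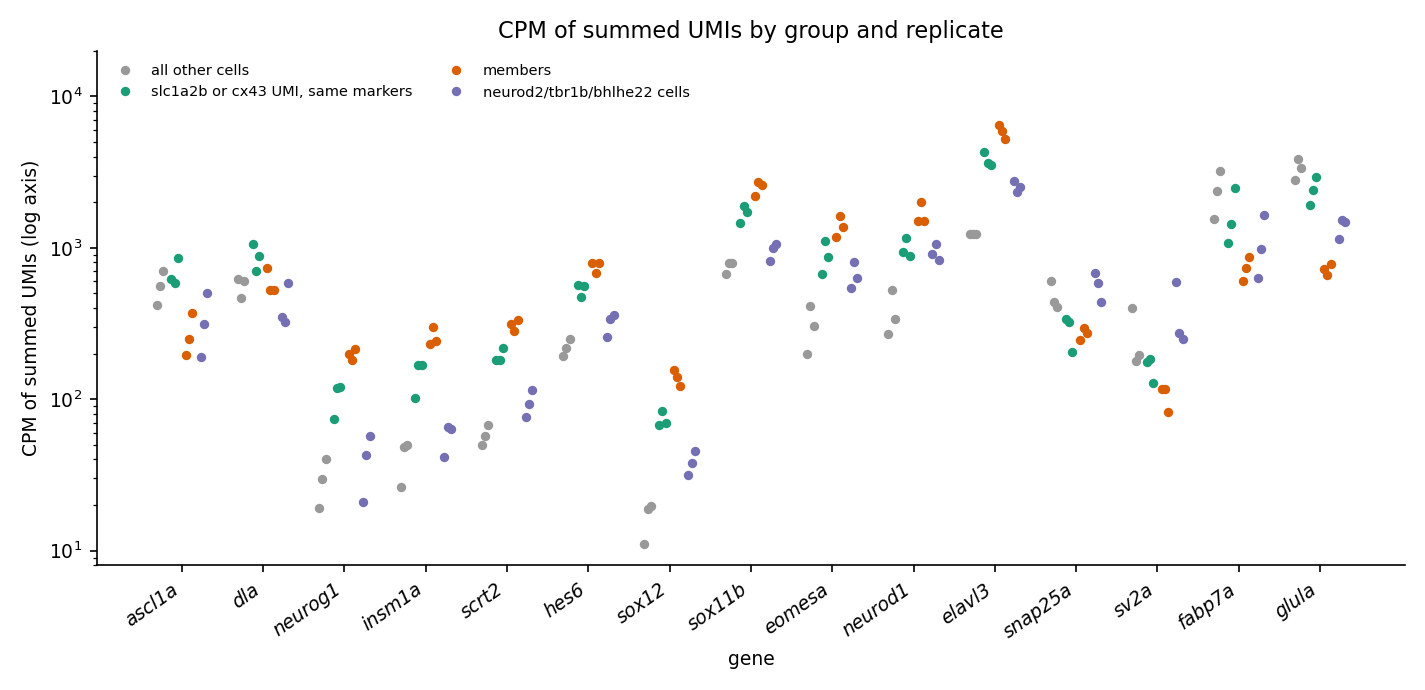
Each point is the CPM of 1 replicate's summed UMIs on a log axis, for 15 genes in 4 groups of cells. For *neurog1*, *insm1a*, *scrt2*, *hes6*, *sox12*, *sox11b*, *eomesa*, *neurod1* and *elavl3* all 3 member values lie above all values of the other 3 groups, whereas for *ascl1a* they lie below all values of the cells with *slc1a2b* or *cx43* UMIs, and for *glula* and *sv2a* below all values of every other group.

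The members were then set against cells with UMIs of at least 2 of *neurod2*, *tbr1b* and *bhlhe22*, transcription factor genes of maturing excitatory neurons, that were not members (640, 1068 and 634 cells, median 2294 UMIs). The member rule and this one overlap: 310 members (43.8%) also met it and stayed members, and 577 (81.6%) held a UMI of at least 1 of the 3 genes. Of the 2342 comparison cells, only 967 held no UMI of the 6 excluded genes. The others held a UMI of at least 1 of those glial or division genes. In this comparison 25.6% of the 8737 genes tested were called, 11.7% higher and 13.9% lower in the members, with a median difference of 0.00 over all genes tested. Member values lay above all values of the comparison cells for 11.3% of genes and below them for 20.4%. Without replicate 2 the calls numbered 1232 in place of 2233. This comparison and the next use the same member sums as the first and are not independent of it. The 6 rule genes summed to 2507, 2825 and 2573 CPM in members and 498, 610 and 782 in the comparison cells. Genes that go along with them, or with *neurod2*, *tbr1b* and *bhlhe22*, were bound to differ here too, and the calls describe the chosen cells.

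The early cascade was again higher in the members, with 19 of 24 tested proneural genes higher and 0 lower (median 1.21). After thinning before the rule 16 of 21 were higher and 4 lower. *neurog1* stood at 198, 182 and 216 in members and 20.8, 43.0 and 57.3 in the *neurod2*/*tbr1b*/*bhlhe22* cells (2.42 ± 0.20, edgeR adjusted p = 4.2e-08), *insm1a* at 230.3, 299.9 and 241 against 41.6, 66.0 and 63.6 (2.28 ± 0.15) and *sox12* at 155, 140.4 and 122 against 31.8, 37.7 and 45.2 (1.96 ± 0.18). Rises were smaller for the later factors *neurod1* (0.94 ± 0.14) and *bhlhe23* (0.46 ± 0.14; −0.04 with the 310 cells that met both rules left out), and *neurod6b* missed the threshold (−0.02 ± 0.14, edgeR adjusted p = 0.94). The *neurod6b* value depended on how the cells were drawn. It was −0.52 (edgeR adjusted p = 0.00299) after thinning every cell to 1000 UMIs before the rule, −0.44 (edgeR adjusted p = 0.0539) with the 310 cells left out and −0.36 (edgeR adjusted p = 0.0279) with the 6 excluded genes at 0 in the comparison cells. For *neurog1*, *insm1a* and *sox12* no values overlapped. Among pallial factors 5 of 14 were higher and 0 lower (median 0.30), *lhx2b* (1.83 ± 0.17) and *emx2* (1.48 ± 0.20) the most. Without the cells that met both rules, 6 of 14 were higher and 2 lower. With the 6 excluded genes at 0 in the comparison cells 7 of 11 were higher and 2 lower. After thinning before the rule 5 of 9 were higher and 3 lower.

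Synaptic genes separated the same groups in the other direction: all 22 genes tested of the 24 listed were lower in the members (median −1.12). *sv2a* stood at 116, 116 and 81.8 in members against 593, 275 and 249 (−1.65 ± 0.19), and *nell2b*, a secreted neuronal protein gene, at 145, 175 and 117 against 1305, 1018 and 551 (−2.57 ± 0.18); neither pair of groups overlapped. Among 27 early neuronal genes tested, 7 were higher and 4 lower (median 0.02): *elavl3* was higher (1.32 ± 0.15) while *map1b* (−0.89 ± 0.16) and *stmn2b* (−0.70 ± 0.17), both cytoskeletal genes of growing neurites, were lower. The split of this list depended on how the cells were drawn. With the 6 excluded genes at 0 in the comparison cells 7 of 26 were higher and 12 lower. After thinning before the rule 5 of 25 were higher and 13 lower, and 5 of 27 were higher and 7 lower without the cells that met both rules (medians −0.28, −0.35 and −0.35). *slc17a6a*, a vesicular glutamate transporter gene, stood at 34.1, 31.2 and 27.3 in members against 109, 63.1 and 33.9 (−1.02 ± 0.24).

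Notch genes were higher than in the *neurod2*/*tbr1b*/*bhlhe22* cells. Of 7 ligand genes tested, 4 were higher and 0 lower: *dlb* (1.64 ± 0.16), *dlc* (1.47 ± 0.20), *dll4* (1.41 ± 0.19) and *dla* (0.64 ± 0.18). Of 13 receptor and target genes 8 were higher, including *her4.2* (1.65 ± 0.27) and *lfng* (0.65 ± 0.19), a glycosyltransferase gene that modifies Notch, and 1, *her6*, was lower (−1.68 ± 0.27). Without the replicate block or with DESeq2 only 1 of these 13 was higher and 1 lower. Of 14 exit genes tested 5 were higher and 2 lower (median 0.16), with *cdkn1ca* at 220.0, 274 and 279 against 78.6, 115 and 134 (1.36 ± 0.15).

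Glial and division genes depended on how the comparison cells were drawn. As drawn, most of those cells held glial or division UMIs that the member rule bars. In that form 15 of 21 radial glia genes, 11 of 21 G1/S genes and 9 of 10 G2/M genes were lower in the members. When the 6 excluded genes were also required at 0 in the comparison cells, 7 of 15 radial glia genes were higher and 2 lower, 5 of 14 G1/S genes were higher and 0 lower, and the 1 G2/M gene tested, *hmgb2a*, was higher. No direction is therefore given for these lists in this comparison. The subpallial and GABA list likewise went from 4 of 13 lower and 0 higher to 0 of 9 lower and 1 higher, and the immediate early genes from 10 of 16 lower and 0 higher to 9 of 15 lower and 3 higher. The proneural and synaptic lists kept their direction, with 18 of 23 proneural genes higher and 3 lower (*neurod6a*, *neurod6b* and *rcor2*) and 22 of 22 synaptic genes lower.

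To ask how the members differ from cells with the same markers that hold glial RNA, they were compared with 456 cells (161, 143 and 152, median 3335 UMIs) that had UMIs of at least 2 of the 6 marker genes, at least 1 UMI of *slc1a2b* or *cx43* and none of the 4 division genes. High doublet scores, by the same rank, were more frequent in those cells, 14.0% against 3.96% of members. The groups shared the threshold of at least 2 marker genes but not their level. The 6 genes summed to 2507, 2825 and 2573 CPM in members and 1577, 1551 and 1594 in those cells. Here 10.3% of the 6286 genes tested were called, 4.18% higher and 6.11% lower in the members, with a median difference of 0.00, and the members lay above all comparison values for 7.84% of genes and below them for 9.85%. The 647 calls depended on the pairing of sums from the same replicate, with 148 calls without the replicate block, 250 without replicate 1 and 379 without replicate 2.

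Of 24 proneural genes tested, 16 were higher in the members than in these glial-marked cells and 1 was lower (median 0.56). The calls became 3 higher and 1 lower without the replicate block, 8 higher and 1 lower with DESeq2, and 0 higher and 1 lower of 17 tested after every cell was thinned to 1000 UMIs before the rule (median 0.31). *neurog1* stood at 198, 182 and 216 in members against 74.1, 118 and 119.5 (0.93 ± 0.15), *neurod1* at 1513, 1992 and 1499.5 against 939, 1164 and 880.3 (0.74 ± 0.06, edgeR adjusted p = 3.2e-11) and *eomesa* at 1174, 1619 and 1376 against 675, 1104 and 865 (0.67 ± 0.07). Apart from *ebf2* (1.11 ± 0.33) the 16 genes rose by less than 1 log2 unit, for example *sox4a* (0.47 ± 0.05), *hes6* (0.49 ± 0.08) and *insm1b* (0.63 ± 0.12). *ascl1a* ran against them, at 196, 249.6 and 373 in members and 619, 586 and 855 in the glial-marked cells (−1.35 ± 0.10), with no overlap between the groups.

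Early neuronal genes were higher in 16 of 25 and lower in 0 (median 0.33), for example *elavl3* (0.62 ± 0.04) and *tubb5* (0.48 ± 0.05), but 0 of 25 passed without the replicate block (9 with an unadjusted edgeR p under 0.05), 4 with DESeq2 and 2 of 23 after thinning before the rule. Of 20 radial glia genes tested, 18 were lower and 0 higher (median −1.78), with *glula* at 727, 666 and 784 against 1919.8, 2421 and 2922 and *fabp7a* at 602, 731 and 864 against 1079, 1442 and 2468, and 15 of the 20 were lower without the block and 10 of 13 after thinning before the rule. *timp4.3*, a metalloproteinase inhibitor gene, and *ptgdsb.1*, a prostaglandin synthase gene, were far lower (−4.64 ± 0.28 and −3.69 ± 0.17; the second has a near-identical neighbour, *ptgdsb.2*, with which reads may be split). These radial glia genes go along with the 2 genes that set the groups apart. Of 21 synaptic and mature neuronal genes tested, 0 were higher in the members and 6 lower (median −0.18), and 0 passed without the block. That list summed to 2707, 3049 and 2433 CPM in members and 3583, 4094 and 2139 in the glial-marked cells.

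Of 7 Notch ligand genes tested 1 was higher and 2 lower, and of 12 receptors and targets 0 were higher and 3 lower. *dla* stood at 732, 523 and 524 in members and 1053, 700.0 and 888 in the glial-marked cells (−0.57 ± 0.08), lower in members in each replicate though the ranges overlapped, and *dld* was lower (−1.53 ± 0.23), while *dll4* was just past the threshold (0.56 ± 0.18, edgeR adjusted p = 0.042). That *dll4* call was lost without the block, with DESeq2, with no low-count filter, without replicate 1 or 2, with doublets left out, with at least 3 rule markers and after thinning before the rule. *notch3* (−1.30 ± 0.18), *her6* (−1.77 ± 0.29) and *lfng* (−0.57 ± 0.11) were the 3 lower, while *her4.2* did not differ beyond its error (0.01 ± 0.14, edgeR adjusted p = 0.98). *ccnd1* was lower in the members (343, 241 and 310.4 against 855, 712 and 936, difference −1.49 ± 0.09), as were 5 of 15 G1/S genes, of which 0 passed without the block, without replicate 1 or with DESeq2. *gsx2* had 5 UMIs in the members and 89 in the glial-marked cells. The glial-marked cells also carried more oligodendrocyte RNA, with 8 of 12 genes of that list lower in the members. Among the largest rises outside the lists were *barhl2* (1.99 ± 0.37) and *itpkca* (1.77 ± 0.31), an inositol phosphate kinase gene.

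**Figure D3:**
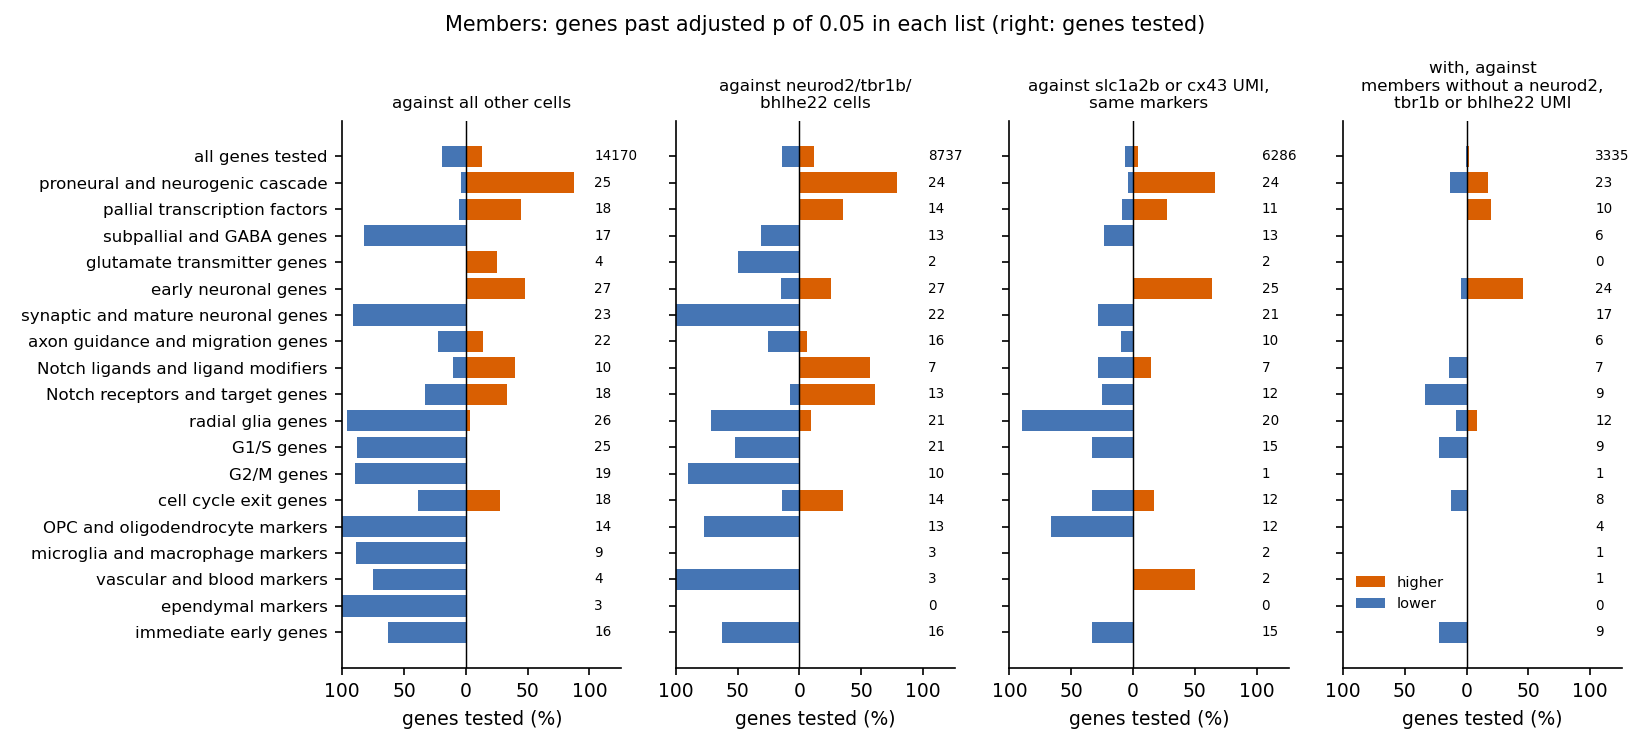
For each gene list and the 4 comparisons, bars give the percentage of tested genes past an adjusted p of 0.05, to the right where the members (or, in the last panel, the members with a *neurod2*, *tbr1b* or *bhlhe22* UMI) were higher and to the left where they were lower. The number of genes tested stands at the right of each panel. The proneural list points mainly right in the first 3 panels, which share the members, and to both sides in the last.

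The members were not uniform. They were split into 577 with a UMI of *neurod2*, *tbr1b* or *bhlhe22* (225, 207 and 145) and 130 without (56, 24 and 50), with medians of 2059 and 1741 UMIs, so the split is partly one of depth. The microglia list summed to 26.7, 109 and 137 CPM in members with and 30.5, 45.7 and 814 in members without such a UMI, high in replicate 3 of the second, and its part in the results was not tested. Of 3335 genes tested 2.43% were called, 1.59% higher and 0.840% lower in the members with such a UMI, with a median difference of −0.01 over all genes tested; values did not overlap, higher, for 10.0% and, lower, for 6.75%. The 81 calls became 160 when only cells with at least 1000 UMIs were used, 20 without the replicate block and 34 with DESeq2. Genes that go along with *neurod2*, *tbr1b* and *bhlhe22* were bound to differ, and the calls describe the split.

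Of the 23 proneural genes tested, 4 were higher and 3 lower in members with such a UMI. *ascl1a* stood at 447, 892 and 546 in members without and 146, 197 and 329 in members with such a UMI (−1.48 ± 0.24, edgeR adjusted p = 0.0023), *neurog1* at 376, 526 and 350.5 against 162, 154 and 182 (−1.31 ± 0.22) and *sox11a* at 1299.7, 1349 and 1216 against 726, 748 and 829 (−0.77 ± 0.12). In each of these 3 genes the values with and without such a UMI did not overlap. In the other direction *neurod6b* stood at 102, 114 and 155 without and 431, 473 and 392 with such a UMI (1.73 ± 0.24), and *bhlhe23* (1.29 ± 0.17), *ebf3a* (2.22 ± 0.46) and *neurod1* (0.66 ± 0.15) were also higher in members with one. *eomesa* (−0.03 ± 0.13), *sox12* (0.14 ± 0.27) and *scrt2* (−0.13 ± 0.21) missed the threshold.

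Of 7 Notch ligand genes tested 1, *dla*, was lower in members with such a UMI, and of 9 receptors and targets 3 were lower. None of either list was higher. *dla* stood at 1432, 1303 and 783 in members without such a UMI and 590.4, 459 and 458 in members with one (−1.21 ± 0.15, edgeR adjusted p = 3.9e-04), *lfng* at 609, 732 and 608 against 283, 289 and 287 (−1.19 ± 0.17) and *her4.2* at 609, 1006 and 577 against 367, 551 and 292 (−0.88 ± 0.15). *her4.1* was lower as well (−1.80 ± 0.42) from few UMIs, 25 without and 49 with such a UMI. The 3 receptor and target calls became 1 without the replicate block, 2 with DESeq2 and 0 of 6 tested with at least 3 rule markers.

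*mcm2*, of the replicative helicase, stood at 122, 183 and 134 in members without such a UMI and 39.0, 46.9 and 76.4 in members with one (−1.39 ± 0.34), and *mcm6* at 254, 183 and 103 against 57.4, 52.5 and 57.9 (−1.70 ± 0.33), the 2 called of 9 G1/S genes tested; 0 were called without replicate 1 or with DESeq2. *fabp7a* stood at 1289.5, 1440.2 and 1206 against 463, 673 and 777 (−1.09 ± 0.15) as 1 of 12 radial glia genes lower, while 1, *lgals2a*, was higher. *lgals2a* stood at 20.3, 45.7 and 51.5 without and 41.0, 219 and 369 with such a UMI. *gadd45gb.1*, a growth arrest gene, differed by −0.95 ± 0.17. *boc*, a Hedgehog co-receptor gene (−1.41 ± 0.30), and *her13* (−1.39 ± 0.34) were also lower in members with one. Of 24 early neuronal genes 11 were higher in members with such a UMI and 1, *stmn1a*, was lower (median 0.60). *tubb5* stood at 965, 1280.2 and 2154 without and 2647, 3128 and 2741 with such a UMI (0.93 ± 0.16), and *gap43* (0.86 ± 0.18) and *stmn1b* (0.68 ± 0.10) rose too. The early neuronal calls became 0 without the replicate block (17 with an unadjusted edgeR p under 0.05) and 5 higher and 1 lower with DESeq2. Of 17 synaptic genes tested 0 passed in either direction with edgeR or DESeq2, and 2 had an unadjusted edgeR p under 0.05.

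Among the genes with the largest rise, *id2b*, which encodes an inhibitor of helix-loop-helix factors, stood at 20.3, 22.9 and 51.5 in members without and 207, 257 and 208 in members with such a UMI (2.66 ± 0.38). *lgals2a*, a galectin gene of the radial glia list, was higher by 2.39 ± 0.39, but its values overlapped, at 20.3, 45.7 and 51.5 without and 41.0, 219 and 369 with such a UMI. *ptpn5*, a neuronal phosphatase gene, was higher by 2.17 ± 0.44.

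**Figure D4:**
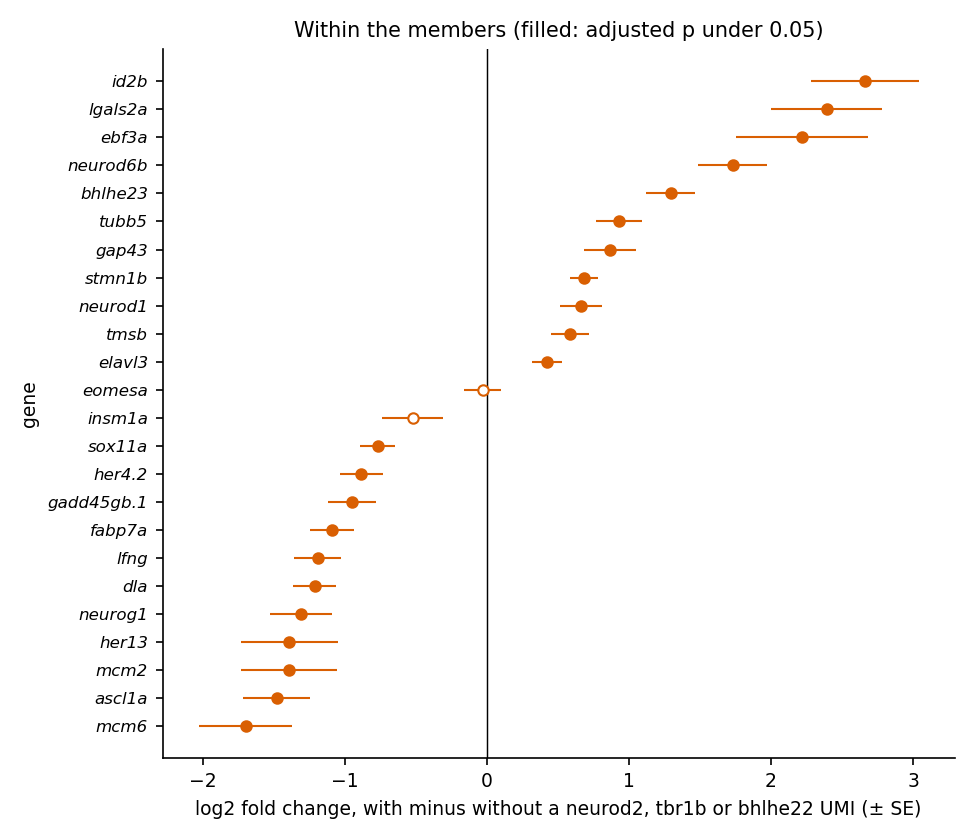
Log2 fold change ± SE between members with and without a UMI of *neurod2*, *tbr1b* or *bhlhe22*, for 24 genes. Filled points passed an adjusted p of 0.05, and the 2 open points, *eomesa* and *insm1a*, did not.

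The rule genes divided the members too, and these shares are given without a test because the rule makes a member that lacks 1 marker carry at least 2 others. In members thinned to 1000 UMIs, those with a *neurod4* UMI had *neurog1* in 19.5% ± 2.91 and *neurod2* in 11.8% ± 4.56 (SD, n = 3), whereas those without had 6.47% ± 2.02 and 25.3% ± 2.2. *insm1a* went with *neurog1*, at 23.8% ± 8.84 of members with and 11.6% ± 1.65 of members without a *neurod4* UMI. *elavl3* was at 94.7% ± 1.92 and 95.8% ± 4.17, within the spread of replicates. Members with an *nhlh2* UMI had *neurod2* in 20.4% ± 1.65 and *tbr1b* in 53.9% ± 5.77, against 12.2% ± 2.92 and 42.3% ± 4.89 of members without. Without thinning, *insm1a* UMIs were in 24.1%, 36.2%, 48.5% and 54.3% of members with 2, 3, 4 and 5 rule genes, and *eomesa* UMIs in 75.4%, 89.4%, 95.05% and 84.8%. *neurod2* UMIs were in 27.5%, 27.1%, 24.8% and 26.1%, and median depth was 1944, 1991, 2023 and 2315 UMIs.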

How the data were processed

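Gene-by-cell matrices of UMI counts were deposited by the authors for 3 replicates. They were made with Cell Ranger against GRCz11 from 10x 3' libraries per the labels and the study's methods, and the matrix file headers give version 3.0.1. Cell filters, members and comparison cells were as given above. The members and all gene lists were chosen with earlier results of these data known. UMIs were summed per replicate and group with Python 3.11.15 and tested in edgeR 4.0.16 (R 4.3.3): TMM scaling, filterByExpr, the replicate as a block, quasi-likelihood F-test, Benjamini-Hochberg adjustment over all genes tested, threshold 0.05. Both sums of a replicate come from 1 library, which pairs them, and deviations of same-numbered sums correlated with r between 0.0852 and 0.411 across the 4 comparisons. DESeq2 1.42.0, with the replicate block, served as an alternative. Of 29077 gene identifiers, 523 symbols had several, of which values are given for the one with most UMIs. No genome sequence was used here.

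Named genes are list genes, and beyond the lists those past the threshold in 1 direction in all replicates, with at least 30 UMIs in the higher group. Of the latter, the 12 largest rises and falls against all other cells and the 8 in each other comparison were eligible. The 12 rule genes, and *neurod2*, *tbr1b* and *bhlhe22* where they set the groups, are described without a test result. Where they passed the low-count filter they were fitted with all genes and stay in the counts of genes tested and called. Shares of cells were thinned to 1000 UMIs. Cells with fewer UMIs were left out of every thinned value. The cells with microglial genes (at least 3 of them), as an estimate of free RNA in place of oligodendrocyte or microglial gene cells, were chosen after seeing the data, as were the list counts under each alternative, and the genes listed at 0 UMIs were bounded with 3 UMIs. Doublets were scored with Scrublet (scanpy 1.11.5) and left out only in an alternative, which dropped the highest-scoring 0.8% per 1000 cells and cells over 3 SD from a fit of genes on UMIs. Further alternatives were RLE scaling, no low-count filter, leaving out each replicate, at least 3 rule markers, cells of at least 1000 UMIs and thinning before the rule.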

Additional observations from a re-analysis of the deposited data

How the results depend on the processing

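The number of genes past the threshold depended on the replicate block, the tool and the depth of the cells. Without the replicate block the calls were 2388 against all other cells (4581 as reported), 811 against the *neurod2*/*tbr1b*/*bhlhe22* cells (2233), 148 against the glial-marked cells (647) and 20 within the members (81), and every one of these genes was also called in the same direction in the reported fits. With DESeq2 the counts were 2407, 918, 145 and 34. Thinning every cell to 1000 UMIs before the rule left 2817, 1212, 57 and 31 calls, of 10800, 3210, 1505 and 1258 genes tested. Asking for at least 3 rule markers gave 336 calls against the glial-marked cells and 46 within the members, and within the members the calls were 157 with no low-count filter and 160 among cells of at least 1000 UMIs. Leaving out 1 replicate gave 2904 to 3438, 1232 to 2192, 250 to 593 and 62 to 97 calls. RLE scaling kept each count within 1.5 times. The mean share of members was 1.90% with at least 3 markers, 4.24% with at most 5% mitochondrial UMIs and 3.67% to 3.79% with 1 replicate left out. After thinning before the rule it was 3.88% of the cells of at least 1000 UMIs. Over replicates the SD of that share was 0.816 after thinning and 0.135 as reported. The causes were not tested.

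Of the gene values named in the report with a fold change, those that changed sign were mostly small. *dla* against all other cells was −0.00317 with at least 3 markers. Against the *neurod2*/*tbr1b*/*bhlhe22* cells, *bhlhe23* was −0.0379 with overlapping cells left out, and *neurod6b* was 0.0147 with at least 3 markers and −0.0755 to 0.0396 with 1 replicate left out. Against the glial-marked cells, *her4.2* was −0.0329 without the block, −0.253 to 0.438 with 1 replicate left out and −0.121 without doublets, and *sox4a* was −0.0134 after thinning before the rule. Within the members, *eomesa* was 0.00866 without the block, 0.266 with no filter, 0.0380 without doublets, 0.0260 after thinning and −0.161 to 0.190 with 1 replicate left out, *scrt2* was 0.154 with no filter and −0.264 to 0.143 with 1 replicate left out, and *sox12* was −0.0367 after thinning. Of these, only *bhlhe23* and *sox4a* had been past the threshold. In all, 22 of 638 gene values under alternatives lost the call against all other cells, 21 of 284 against the *neurod2*/*tbr1b*/*bhlhe22* cells, 31 of 232 against the glial-marked cells and 51 of 268 within the members. The 130 members without a *neurod2*, *tbr1b* or *bhlhe22* UMI gave 239242 UMIs in all, which limits that comparison to 3335 genes.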
